A study of Schmidtea mediterranea with 9 samples.

Results

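A set of 141 transcripts of the planarian *Schmidtea mediterranea* was read in non-gonadal body tissue at many times its level in either gonad. They make up 0.391% of the 36036 transcripts counted. They were selected on measured values. The mean deposited CPM (counts scaled by the authors with a library factor that the sources used here do not describe) over the 3 non-gonadal libraries had to be at least 10, and at least 16 times both the ovary mean and the testis mean. A limit of 200 transcripts was not reached. Because all 9 libraries entered this choice, the difference between each gonad and non-gonadal tissue is given below as a description with no test, whereas the direction between ovary and testis was left free and was tested. The limits on both gonads still bound that difference, since they leave out any transcript that is high in either one.

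Planarians are flatworms whose body holds a branched gut, a muscular feeding pharynx, a ciliated epidermis, a brain and nerve cords, excretory tubules, glands and a population of stem cells. The sexual strain is a hermaphrodite that also carries ovaries, testes and accessory reproductive organs such as the yolk glands (vitellaria). Transcripts made by differentiated body tissues can therefore be abundant around a gonad and rare within it.

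The libraries came from wild type worms of the sexual strain, with no other treatment. Pieces of ovary, of testis and of the non-gonadal body tissue nearby were cut from stained cryosections by laser-capture microdissection (LCM), in which a laser excises chosen areas of a section, and RNA was sequenced from 3 libraries per tissue. Each ovary library pooled tissue of 14 worms (10 cut in cross-section and 4 sagittally), and each testis or non-gonadal library pooled 6 worms (4 and 2). The non-gonadal samples mixed many body cell types, so they do not assign a transcript to any of them, and in such bulk samples fewer cells of a type and less RNA per cell cannot be told apart.

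The files analysed here give the members by identifier, with no gene name, function or sequence. The 531 identifiers that the study describes by sequence match were picked as ovary-enriched, which the choice of members excludes. No role is therefore stated for any member.

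Library totals ran between 18611584 and 25730833 counts. Marker transcripts of the gonads, none of them a member, followed the labels. The summed CPM of 3 ovary markers (*zfs1*, *lecg* and a *cgh-1* match) was 3523 to 3811 in ovary, 180 to 220 in testis and 9.59, 52.0 and 9.63 in non-gonadal replicates 1, 2 and 3. The sum of 3 testis markers (*sped-1*, *C3H-zfn-1* and *elav2*) was 38.6 to 85.8 in ovary, 16048 to 19470 in testis and 29.7 to 61.2 in non-gonadal tissue. *nanos*, which marks early germ cells, had 34.5 to 40.2 CPM in ovary, 31.5 to 38.0 in testis and 9.08 to 10.6 in non-gonadal tissue. In testis the ovary sum came from *lecg* (94.2, 125 and 111 CPM) and the *cgh-1* match (85.5, 94.8 and 85.0 CPM). *zfs1* had 0, 1 and 0 counts there, against 1401, 1256 and 1212 in ovary. Reads of some markers in each list were thus present in tissues other than the list's own. Their part in the members' values was not tested. Body cell type markers were not analysed here.

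Together the members took 0.0331% to 0.0451% of all counts in the ovary libraries and 0.0208% to 0.0238% in the testis libraries, against 1.38%, 1.46% and 1.18% in non-gonadal replicates 1, 2 and 3. In TPM (each transcript's length-corrected share of its library, which lets transcripts be compared) they summed to 595, 491 and 516 in ovary and 294, 274 and 310 in testis, against 17306, 18395 and 14756 in non-gonadal tissue. No member was at 0 in a non-gonadal library. In the ovary libraries 3 or 4 members were at 0 counts, and in testis replicates 1, 2 and 3 the number was 31, 20 and 13.

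**Figure D1:**
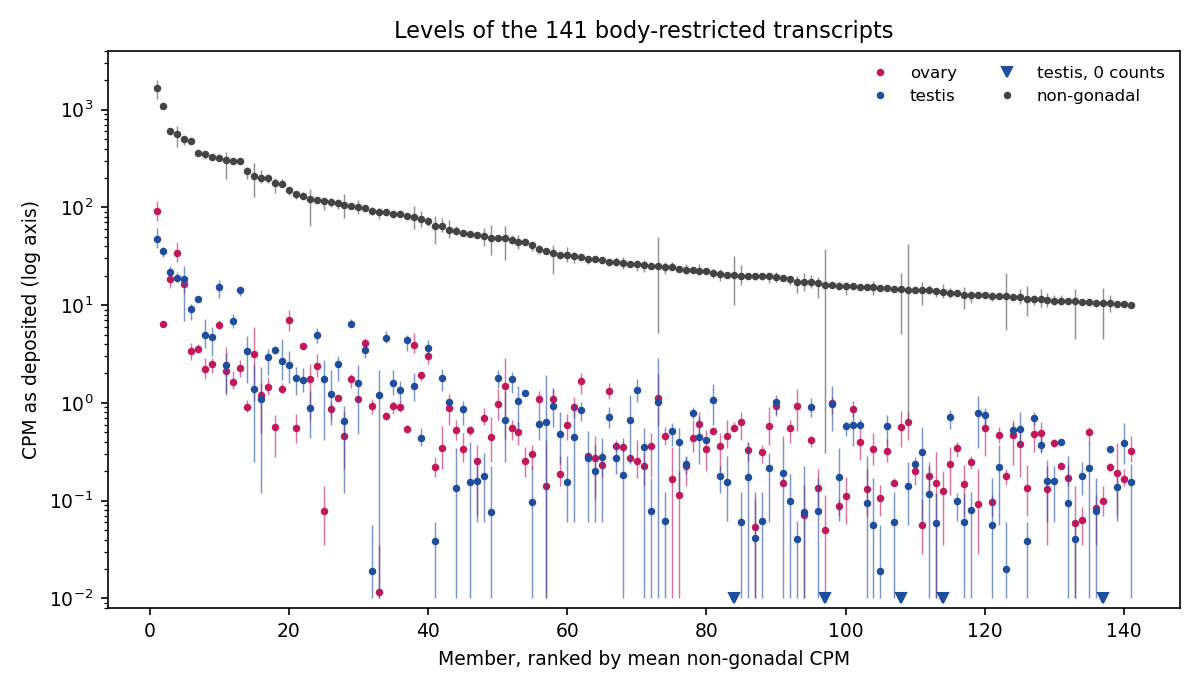
Deposited CPM (log axis) of each of the 141 members, ranked by non-gonadal mean, in ovary, testis and non-gonadal tissue. Points are means of 3 libraries, lines run between the lowest and the highest library and stop at 0.01 CPM, and triangles mark the 5 members with 0 testis counts; the non-gonadal points lie above both gonads because the members were chosen so, and the ovary and testis points interleave.

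The members covered a wide span of levels. The median non-gonadal mean was 25.5 CPM (10.1 to 1662), or 28.5 TPM (3.44 to 1636). Of the 141 members, 56 lay between 10 and 20 CPM, 37 between 20 and 50, 18 between 50 and 100, and 30 at 100 or more. A few abundant transcripts carried much of the signal. The 10 with the most non-gonadal counts held 48.6% of all non-gonadal counts of the set, and the same 10 held 66.3% of its ovary counts and 59.7% of its testis counts.

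The members tended to be short. Their median length was 898 bases (97 to 11239), against 1522 bases over all 9057 transcripts with at least 10 CPM in non-gonadal tissue. A further 111 of these were at least 16 times lower in ovary but not in testis, with a median length of 685 bases, and 419 were so in testis but not in ovary, with a median of 1031 bases. The differences in length were not tested.

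Within the set, the level in the gonads relative to the body differed widely from member to member. The ovary mean was a median of 1.30% of the non-gonadal mean (0.0130% to 6.23%) and the testis mean a median of 1.47% (0% to 6.21%). Against all transcripts with at least 10 non-gonadal CPM these medians were 88.3% and 65.8%. At least 64-fold lower than non-gonadal tissue were 81 members in ovary and 74 in testis, and 22 were at least 100-fold lower in both gonads. In 140 of the 141, all 6 gonad libraries lay below all 3 non-gonadal libraries, which the choice of members largely brings about. Nothing is read from this count, which was not made over all transcripts.

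At the 10 CPM limit, SMED30016052 was just inside with 10.1 CPM in non-gonadal tissue and SMED30031426 just outside with 9.93 CPM. For the ratio to ovary, SMED30014923 was just inside at 16.1 and SMED30002836 just outside at 15.9. For the ratio to testis the neighbours were SMED30026176 inside at 16.1 and SMED30017545 outside at 15.96. These neighbours lie close together, with no gap at any of the limits.

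The 10 members with the highest non-gonadal TPM held 52.5% of the set's non-gonadal TPM. SMED30027307 (947 bases) led with 1636 ± 357 TPM in non-gonadal tissue (SD, n = 3, as for all SDs below). The transcript had 117, 73.2 and 86.5 CPM in the ovary libraries and 61.2, 38.2 and 43.1 CPM in the testis libraries, against 1692, 2000.3 and 1293 CPM in non-gonadal tissue. The ovary and testis libraries did not overlap, but the log2 fold change of ovary over testis was 0.95 ± 0.25 (SE, edgeR quasi-likelihood test, Benjamini-Hochberg adjusted p = 0.00293), below the 2-fold limit set for a call. It passed as higher in ovary without ovary replicate 2 (1.04), without testis replicate 1 (1.21) and with library size alone (1.91).

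SMED30026459 (714 bases, 1422 ± 59.9 TPM in non-gonadal tissue) was nearly as abundant but had the opposite order in the gonads. It had 6.54, 6.06 and 6.48 CPM in ovary and 31.4, 39.7 and 35.2 CPM in testis, against 1103, 1118 and 1048 CPM in non-gonadal tissue. All testis libraries lay above all ovary libraries, and the log2 fold change was -2.47 ± 0.13 (SE, edgeR quasi-likelihood test, adjusted p = 1.28e-09).

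SMED30025454 (463 bases) averaged 34.4 ± 8.41 CPM in ovary and 18.7 ± 2.52 CPM in testis, against 558 ± 134 CPM in non-gonadal tissue. The log2 fold change of 0.87 ± 0.22 (SE, edgeR quasi-likelihood test, adjusted p = 0.00271) was also under 2-fold, and it passed without testis replicate 1 (1.03) and with library size alone (1.84). SMED30017499 (524 bases) averaged 18.4 ± 4.47 CPM in ovary and 21.9 ± 2.88 CPM in testis, against 601 ± 55.0 CPM in non-gonadal tissue. Its gonad libraries overlapped, and the difference between ovary and testis did not pass the test (log2 fold change -0.26 ± 0.19, SE, adjusted p = 0.211, edgeR quasi-likelihood test).

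Of the other 6 in the leading 10, 4 were called higher in testis. SMED30000746 averaged 3.40 ± 0.704 CPM in ovary and 9.13 ± 1.81 CPM in testis, a log2 fold change of -1.42. SMED30010405 averaged 1.64 ± 0.430 CPM in ovary and 6.86 ± 1.15 CPM in testis, a log2 fold change of -2.07. SMED30029019 averaged 3.54 ± 0.399 CPM in ovary and 11.5 ± 0.831 CPM in testis, a log2 fold change of -1.70. In these 3 the testis libraries all lay above the ovary libraries, and the largest of their adjusted p-values was 8.4e-06 (edgeR quasi-likelihood test). With library size alone SMED30000746 was at -0.46 and SMED30029019 at -0.74, neither of them a call, while SMED30010405 was at -1.10 and stayed one.

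SMED30023766 was the last of the 4, with 2.85, 1.75 and 2.00 CPM in ovary and 4.00, 3.66 and 7.29 CPM in testis, against 380, 359 and 310 CPM in non-gonadal tissue. It was called at a log2 fold change of -1.20 (edgeR quasi-likelihood test, adjusted p = 0.0013), and without testis replicate 3 the value was -0.78 and no longer a call, as with library size alone (-0.23). SMED30026808 averaged 2.52 ± 0.460 CPM in ovary and 4.67 ± 1.52 CPM in testis, and its testis libraries all lay above its ovary libraries. At a log2 fold change of -0.89 (edgeR quasi-likelihood test, adjusted p = 0.00208) it was just under 2-fold and not called. It passed with DESeq2 size factors (-1.01), by DESeq2 (-1.004), without ovary replicate 3 (-1.01) and without testis replicate 1 (-1.10), and was at 0.0840 with library size alone. SMED30019617, a transcript of 190 bases, had 0.668, 2.53 and 2.03 CPM in ovary and 1.31, 0.434 and 0.911 CPM in testis, against 146, 156 and 64.1 CPM in non-gonadal tissue, and its gonad libraries overlapped. It was not called (log2 fold change 0.98) except with library size alone (1.94).

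**Figure D2:**
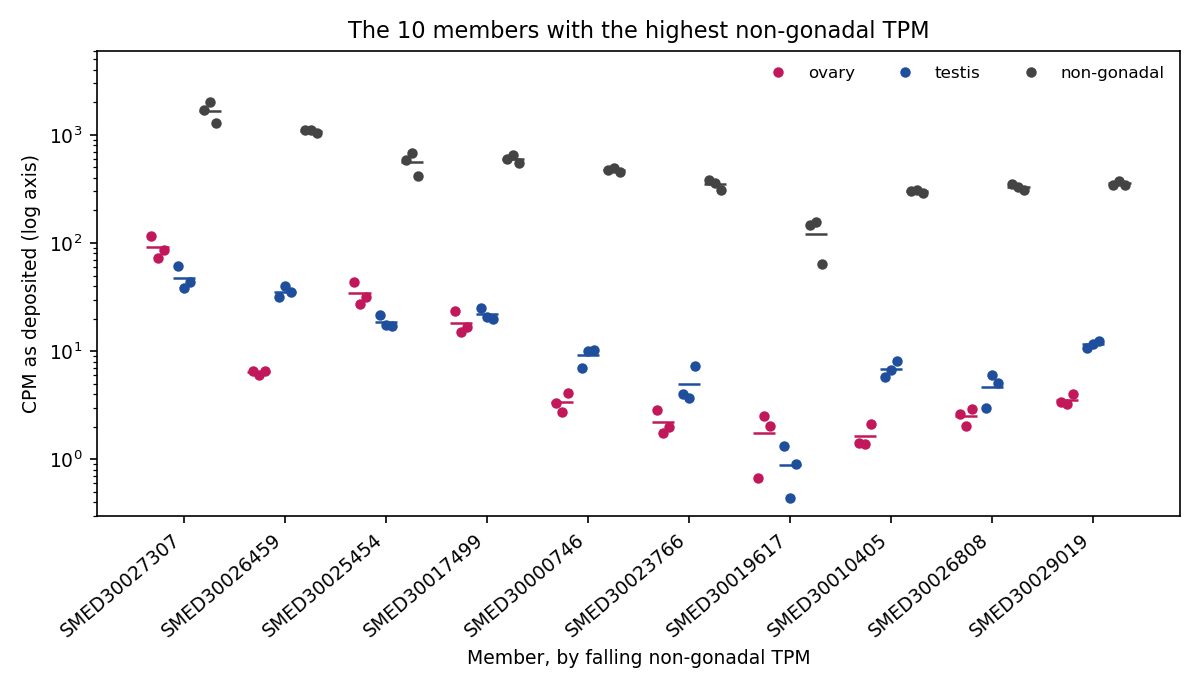
Deposited CPM (log axis) in each library of the 10 members with the highest non-gonadal TPM, with bars at the mean of 3 libraries. Ovary points stand above testis points for SMED30027307 and SMED30025454, and below them for SMED30026459, SMED30000746, SMED30023766, SMED30010405, SMED30026808 and SMED30029019.

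Ovary and testis were compared for the 139 members that passed the filter on low values, which asked for at least 1 CPM in at least 3 libraries. Higher in ovary were 16 members (11.5%), against 31.6% of all 18416 transcripts tested. Higher in testis were 28 members (20.1%), against 30.4% of all transcripts tested. Both shares are shaped by the choice of members, which excluded transcripts high in either gonad, so nothing is read from their being below those of all transcripts. The other 95 members were not called, 63 of them below 2-fold and 32 at 2-fold or more without passing the adjusted p of 0.01 (edgeR quasi-likelihood test). The median log2 fold change of ovary over testis was 0.03 over the members and 0.22 over all transcripts tested.

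For orientation only, all 139 also passed the same thresholds as lower in ovary against non-gonadal tissue (18.8% of all transcripts did), and all 139 as lower in testis (35.1%). Nothing is read from these counts, since the members were chosen on those differences. Their median log2 fold changes were -6.27 in ovary and -6.08 in testis, against 0.02 and -0.10 over all transcripts tested. Placing members of 0 testis counts at their bound left the testis median at -6.08 and the ovary over testis median at 0.03.

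The split between the gonads depended on how libraries were scaled. With scaling by library size alone, 47 members were higher in ovary and 12 in testis, and the median over all tested transcripts moved by 0.97 on the log2 scale. Of the calls made by members, 36.4% were higher in ovary after TMM scaling (a factor per library from the trimmed mean of ratios) and 79.7% with library size alone, whereas over all transcripts these shares were 51.0% and 69.9%. In deposited TPM, 108 of the 141 members had a higher mean in ovary, and in deposited CPM 72 had. Directions between the gonads below are after TMM scaling, and are relative to the bulk of transcripts. No member called in one direction was called in the other under any setting tried.

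Of the 16 members higher in ovary, none had overlapping gonad libraries, from which nothing is read, as overlap was not counted over all calls. Their log2 fold changes had a median of 2.13, which was the same with the 1 member of 0 testis counts placed at its lower bound, and 12 of them had fewer than 10 counts over the 3 testis libraries. Leaving out ovary replicate 2 reduced the count to 10. Their median non-gonadal level was 28.9 CPM.

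SMED30031469 (311 bases) had the largest change of those with at least 10 counts in the lower gonad. It had 2.07, 1.67 and 2.07 CPM in ovary and 0.358, 0.558 and 0.398 CPM in testis, against 92.2, 74.6 and 63.7 CPM in non-gonadal tissue. Every ovary library lay above every testis library, by a log2 fold change of 2.13 ± 0.31 (SE, edgeR quasi-likelihood test, adjusted p = 3.18e-05), from 176 ovary and 22 testis counts.

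SMED30002577 (472 bases) had 8.96, 5.40 and 6.83 CPM in ovary and 1.61, 2.23 and 3.42 CPM in testis, against 133, 152 and 163 CPM in non-gonadal tissue. The gonads did not overlap and the log2 fold change was 1.53 ± 0.25 (SE, edgeR quasi-likelihood test, adjusted p = 9e-05). SMED30012451 (950 bases) had 5.17, 3.24 and 3.26 CPM in ovary and 2.03, 1.05 and 1.42 CPM in testis, with a log2 fold change of 1.36. It passed narrowly (edgeR quasi-likelihood test, adjusted p = 0.00256), and without ovary replicate 1, testis replicate 2 or testis replicate 3 the adjusted p was 0.0111, 0.0179 or 0.0112.

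SMED30024979 (2435 bases) had 3.62, 3.93 and 3.82 CPM in ovary, close to one another, and 1.55, 1.30 and 2.28 CPM in testis. Its log2 fold change of 1.14 (edgeR quasi-likelihood test, adjusted p = 0.000113) fell to 0.94 without testis replicate 2, under the 2-fold limit.

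The 28 members higher in testis had a median non-gonadal level of 107 CPM or 144 TPM. Their log2 fold changes had a median of -1.87, and only 3 had fewer than 10 ovary counts. In 27 of the 28 the testis libraries all lay above the ovary libraries. No such count was made over all transcripts called, so nothing is read from it. Relative to non-gonadal tissue the 28 members stood at a median of 0.721% in ovary and 3.24% in testis.

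SMED30022783 (406 bases) led this group among members with at least 10 ovary counts. It had 0.527, 0.488 and 0.595 CPM in ovary and 3.40, 4.89 and 4.95 CPM in testis, against 81.9, 87.3 and 75.9 CPM in non-gonadal tissue. The gonads were well apart, with a log2 fold change of -3.03 ± 0.20 (SE, edgeR quasi-likelihood test, adjusted p = 9.47e-09).

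SMED30002992 (633 bases) had 2.74, 1.84 and 2.17 CPM in ovary and 12.3, 15.7 and 14.5 CPM in testis, against 302, 294 and 290 CPM in non-gonadal tissue. SMED30035148 (621 bases) had 0.808, 0.660 and 0.735 CPM in ovary and 4.12, 4.28 and 5.41 CPM in testis, against 89.6, 94.4 and 81.8 CPM in non-gonadal tissue. Both had testis libraries above every ovary library, with log2 fold changes of -2.66 and -2.65 (edgeR quasi-likelihood test, adjusted p of 3.27e-09 and 1.95e-08).

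SMED30002072 (2324 bases) was rarer in both gonads relative to its body level. It had 0.281, 0.746 and 0.665 CPM in ovary and 3.17, 3.84 and 3.47 CPM in testis, against 201, 196 and 140 CPM in non-gonadal tissue. The log2 fold change was -2.59 ± 0.29 (SE, edgeR quasi-likelihood test, adjusted p = 2.52e-06). SMED30026176, named above for its ratio to testis, was also higher in testis, with 8 counts over the ovary libraries and 39 over the testis libraries.

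**Figure D3:**
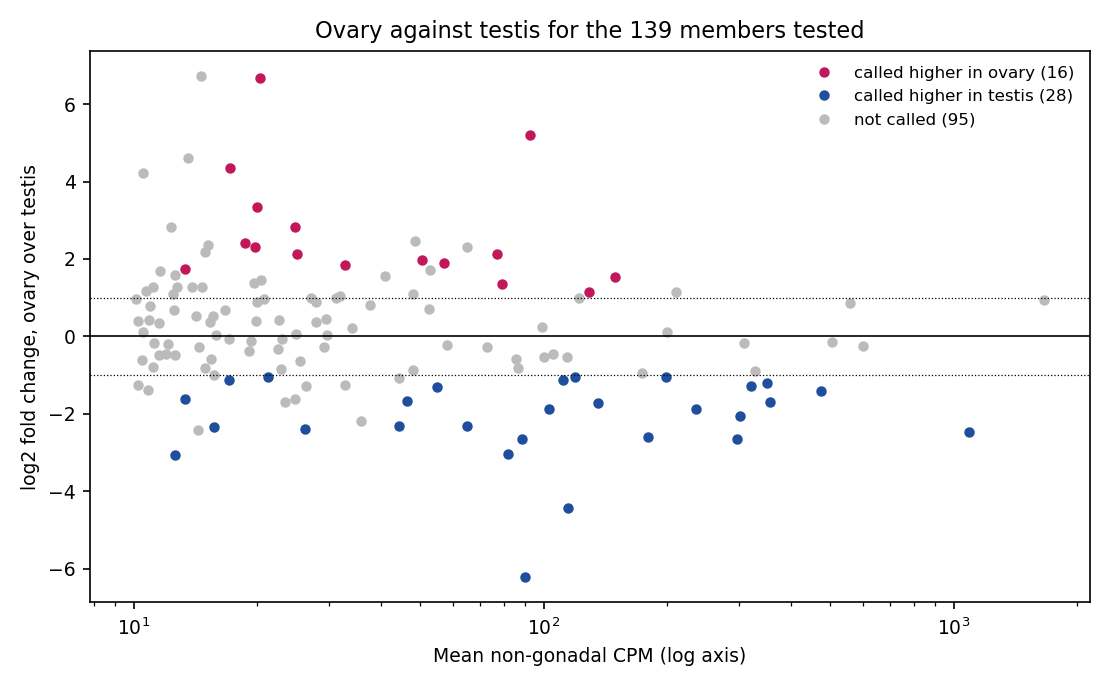
Log2 fold change of ovary over testis against mean non-gonadal CPM (log axis) for the 139 members tested; dotted lines mark 2-fold. The 28 members called higher in testis extend to the most abundant ones, and most of the 95 grey points, which were not called, lie at low levels.

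The calls were also counted by abundance. Of the 54 tested members between 10 and 20 CPM, 4 were higher in ovary and 4 in testis, and between 20 and 50 CPM the counts were 5 and 4 of 37. Between 50 and 100 CPM they were 5 and 5 of 18, and at 100 CPM or more 2 were higher in ovary and 15 in testis, of 30. With library size alone the most abundant class gave 5 and 5. Over the same classes, in order, the ovary level was a median of 1.64%, 1.44%, 1.01% and 0.781% of the non-gonadal level, and the testis level 1.11%, 1.47%, 1.58% and 1.61%. The differences between classes were not tested. Calls over all transcripts were not counted by class, so these counts are not read as particular to the members. The members not called had a median of 33 ovary and 18 testis counts over 3 libraries.

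At the lowest end, counting error limits what can be said. No member was free of reads in all ovary libraries, and 5 were free of reads in all testis libraries. Taking 3 counts over the 3 testis libraries as the most that a count of 0 allows, these were at least 343-fold (SMED30010682), 270-fold (SMED30027157), 245-fold (SMED30019249), 228-fold (SMED30002013) and 177-fold (SMED30021099) lower in testis than in the body. These bounds cover the testis counts only and take the non-gonadal mean as exact. After TMM scaling, SMED30027157 had 0.318, 11.0 and 37.8 CPM in non-gonadal replicates 1, 2 and 3, and SMED30019249 had 5.24, 17.8 and 21.7 CPM. SMED30010682 had 10.4, 32.5 and 19.9 CPM, SMED30021099 4.71, 15.5 and 12.3 CPM, and SMED30002013 12.8, 17.1 and 12.0 CPM. A further 16 members had 1 to 3 testis counts, and 1 had so few in ovary. No member had 3 counts or fewer in both gonads.

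Some of these rare reads still differed in number between the gonads, and the next 3 members were chosen after their values were seen. SMED30010682, with 0.633, 0.517 and 0.525 CPM in ovary and 0 in each testis library, was at least 9.31-fold higher in ovary. SMED30026425 gave 85 ovary counts and 1 testis count, a ratio of 46.6 with an exact 95% interval of 8.13 to 1860. SMED30004187 gave 1 ovary count and 62 testis counts, a ratio of 0.00883 (0.00022 to 0.0511). All its testis counts came from replicates 2 and 3, so its ovary and testis libraries overlapped. The intervals cover counting error only.

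Among the 22 members at least 100-fold lower in both gonads, non-gonadal levels reached 307 CPM and lengths ran between 251 and 6318 bases (median 773). The one with the highest CPM, SMED30019187 (3012 bases, 95.2 TPM in non-gonadal tissue), had 1.27, 3.70 and 1.40 CPM in ovary and 1.19, 2.91 and 3.24 CPM in testis, against 362, 366 and 193 CPM in non-gonadal tissue. Its gonad libraries overlapped. SMED30032199 (768 bases) and SMED30015120 (400 bases) followed by CPM but were higher per length, at 242 and 245 TPM, with ovary levels of 0.602% and 0.432% and testis levels of 0.554% and 0.621% of the non-gonadal mean.

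The members also varied among the non-gonadal libraries. Their median coefficient of variation over the 3 libraries was 10.7%, against 6.81% over all 9057 transcripts with at least 10 non-gonadal CPM. It was 9.42% for the 111 transcripts at least 16 times lower in ovary only and 9.90% for the 419 so in testis only. The differences were not tested. The highest library was replicate 1 for 35 members, replicate 2 for 85 and replicate 3 for 21. The lowest was replicate 3 for 68, replicate 1 for 58 and replicate 2 for 15. Ovary marker RNA was also highest in replicate 2, as given above, and its part in this order was not tested.

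In 13 members the highest non-gonadal library was at least 2 times the lowest, and in 3 at least 5 times. SMED30027157 (1103 bases) had 0.0351, 0.115 and 0 CPM in ovary and 0 in testis, against 0.306, 10.7 and 37.3 CPM in non-gonadal tissue. Its non-gonadal counts were 6, 241 and 762, so 1 library holds most of its reads. Without non-gonadal replicate 3 it is no longer a member.

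SMED30028565 (324 bases) had 0.808, 0.689 and 0.420 CPM in ovary and 0.119, 0.248 and 0.0569 CPM in testis, against 0.612, 0.752 and 41.9 CPM in non-gonadal tissue. It is the 1 member whose ovary and non-gonadal libraries overlapped. Its place in the set rests on non-gonadal replicate 3 alone, and its other non-gonadal libraries lay within the range of the ovary libraries. Neither of these passed the filter on low values.

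SMED30002246 (347 bases) ran the other way among the non-gonadal libraries, with 1.97, 0.574 and 0.805 CPM in ovary and 2.87, 0 and 0.228 CPM in testis, against 50.2, 19.4 and 5.18 CPM in non-gonadal tissue. In each tissue replicate 1 was the highest. The ovary and testis libraries overlapped, and their difference did not pass the test (edgeR quasi-likelihood test, adjusted p = 0.956).

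**Figure D4:**
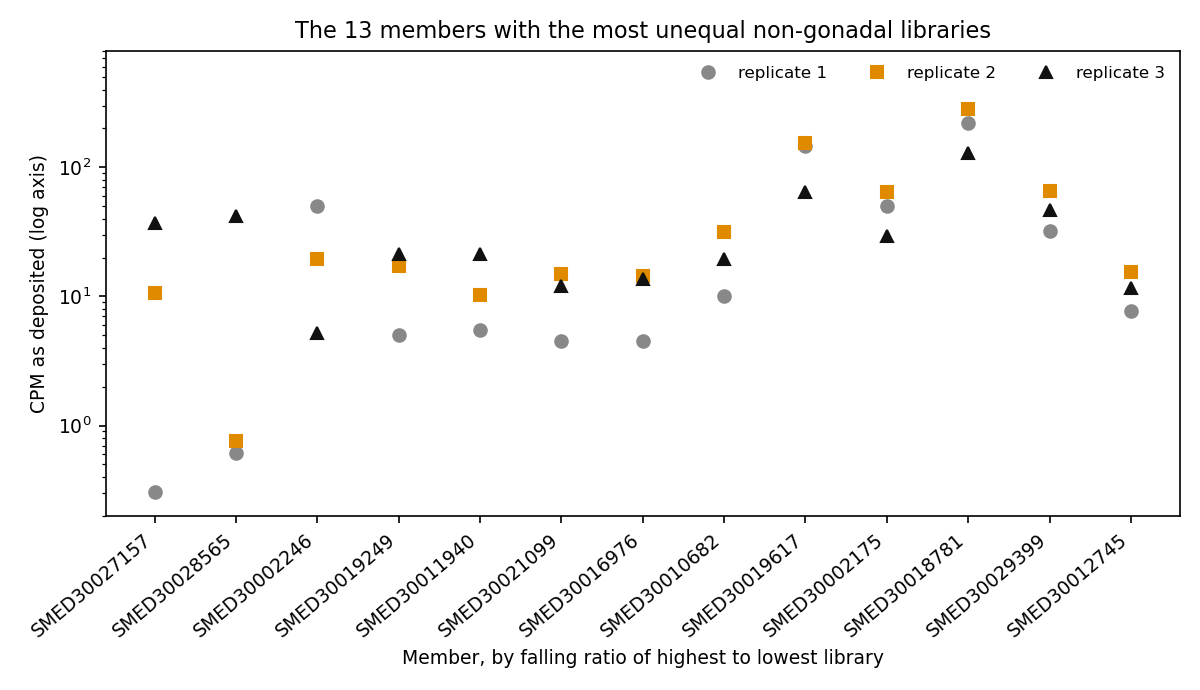
Deposited CPM (log axis) in non-gonadal replicates 1, 2 and 3 of the 13 members whose highest non-gonadal library is at least 2 times the lowest. Replicate 3 stands alone at the top for SMED30027157 and SMED30028565 and at the bottom for SMED30002246, and in 8 of the other 10 replicate 2 is the highest.

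The ratio of some members to one another varied little over the libraries, by 1.37-fold to 1.49-fold in the 3 steadiest pairs. Among the 26 members with at least 20 counts in each of the 9 libraries there are 325 pairs, and the ratio of a pair's CPM varied over the libraries by a median of 5.34-fold. The 3 steadiest pairs were picked out by this measure, so they are a description. A wide range of each member over the libraries follows from the choice, which asked for at least 16 times either gonad in non-gonadal tissue. Nothing is read from the ranges. SMED30002992 and SMED30035148 ranged over 164-fold and 143-fold across the 9 libraries, and the ratio between them stayed between 2.68 and 3.68.

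SMED30027307 and SMED30025454 ranged over 52.4-fold and 39.6-fold, with a ratio between 2.18 and 3.13. SMED30026808 and SMED30030790 ranged over 173-fold and 178-fold, with a ratio between 1.48 and 2.21. The members of each pair had like levels in ovary relative to the body (0.762% and 0.829%, 5.55% and 6.16%, 0.767% and 0.724%) and in testis (4.80% and 5.19%, 2.86% and 3.36%, 1.42% and 1.5%). The sources used here do not say how reads with several matches were counted, so reads shared between similar transcripts cannot be told apart from separate transcripts that move together.

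Membership was steady to the loss of a library for most of the set. Leaving out each of the 9 libraries in turn gave between 131 and 152 members, and 123 of the 141 met the limits every time. Requiring the lowest non-gonadal library to be at least 10 CPM and at least 16 times the highest gonad library left 99. With deposited TPM in place of CPM, 137 transcripts met the limits and 99 of them were members, and with CPM from library totals 162 did, of which 131 were members.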

How the data were processed

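RNA from laser-captured ovary, testis and non-gonadal tissue was sequenced in 9 libraries, 3 per tissue, grouped by GEO's labels. After trimming, the authors mapped reads of a strand-specific kit with CLC Genomics Workbench against an assembled transcriptome that included *zfs1*, and deposited raw counts per transcript. The sources used here do not give its version or settings. They also deposited RPKM, used here only to recover transcript lengths, and TPM, used to compare transcripts. Their deposited CPM is a signal that carries an undescribed composition factor (1.35 to 1.38 in ovary, 0.632 to 0.756 in testis, 1.02 to 1.05 in non-gonadal libraries). It was used as deposited to choose the members and for the filter, although the plan took it for plain CPM. Columns of the authors' own fold changes and p-values were not used.

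The 18416 transcripts reaching 1 CPM in 3 or more libraries were tested with edgeR 4.0.16 (R 4.3.3, limma 3.58.1; quasi-likelihood test, TMM, 1 model for all 9 libraries). A call needed 2-fold and p of 0.01 or less after Benjamini-Hochberg adjustment over all transcripts tested. Standard errors of log2 fold changes are their size over the square root of F. Totals of 18611584 to 25730833 counts leave most members with few gonad reads, and intervals are exact binomial ones. The p-values measure the spread between pools of worms, estimated over all 9 libraries, those of non-gonadal tissue included. The test was checked on simulated data in which 200 of 18416 transcripts were changed 4-fold. It recovered 92.5% of them, with 0 false calls. The tissues otherwise had equal means there, so the simulation does not check the scaling between these tissues. The 200 were drawn at random from all those tested, which had medians of 918 ovary and 663 testis counts over 3 libraries. Members had medians of 43 and 24, so the share recovered does not stand for them. Alternatives were DESeq2 1.42.0, other scalings, filters and thresholds, a replicate block, and each library left out.

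The members, lists and rule for names were chosen with earlier results of these data known. Named were the 10 members of highest non-gonadal TPM, the 4 with the largest change in each direction between the gonads (called, no overlap, at least 10 counts in the lower gonad), the 3 of highest non-gonadal TPM with at most 3 counts in each gonad (there were none), the 3 most unequal among non-gonadal libraries, and those next to each limit. Other names were chosen after their values were seen.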

Additional observations from a re-analysis of the deposited data

How the results depend on the processing

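Limits of the rule moved the size of the set: 8 times in place of 16 times gave 377 members, 32 times gave 91, and a non-gonadal mean of at least 20 CPM gave 85. Between ovary and testis, calls over all transcripts are given in brackets beside those of members. Members higher in ovary numbered 27 (5992) at an adjusted p of at most 0.05 and 47 (9738) with library size alone. With 1 library left out they numbered 10 to 22 (5376 to 5903). Members higher in testis numbered 12 (4202) with library size alone and 23 to 35 (5563 to 5740) with 1 library left out. DESeq2 gave 18 and 36 (5396 and 5852). All 139 were called lower than non-gonadal tissue in both gonads under every alternative, except that 138 were called in testis by DESeq2. Nothing is read from these calls, since the members were chosen on those differences.

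Signs of the log2 fold change of ovary over testis turned only in named members that were not called. With library size alone SMED30017499 was at 0.71 and SMED30026808 at 0.0840. SMED30002246 was at -0.0316 with DESeq2 size factors, -0.00849 by DESeq2, -0.61 without ovary replicate 1, -0.52 without testis replicate 2 and -0.40 without testis replicate 3, and at 3.18 without testis replicate 1. SMED30014923 was at -0.0869 with DESeq2 size factors, -0.0871 by DESeq2, -0.0163 with the filterByExpr filter, -0.01 without ovary replicate 1, -0.14 without ovary replicate 2 and -0.26 without testis replicate 3, at 0.41 without testis replicate 2 and, past the thresholds, at 1.00 (adjusted p = 0.00588) with library size alone by the edgeR quasi-likelihood test. The cause was not tested.

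Replicate numbers do not pair the samples by the labels. Deviations of same-numbered libraries correlated at 0.0157 to 0.232, over 0.1 in 4 of 9 pairs, and in 16 of 18 cases a library correlated best with its own number. With the replicate number as a block, 16 members were higher in ovary and 28 in testis, of which 14 and 28 were called without it. Over all transcripts the block gave 5799 and 5594. All 139 were called lower in each gonad than in non-gonadal tissue, a difference that the members were chosen on.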
